A study of Bos grunniens x Bos taurus and Bos grunniens with 6 samples.

Results

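Adenylate kinases were represented by 7 of the 18918 genes in the FPKM table of testis tissue, chosen by their gene symbol. Of the 8 symbols looked for, 6 were found, namely AK1, AK3, AK4, AK5, AK7 and AK8. AK8 stood on 2 genes, and the second of these, written ak8 in lower case (ENSBGRG00000009411), is described in the same table as adenylate kinase 9. It is called ak8 below, and its identity as AK8 or AK9 is uncertain. No gene carried the symbol AK6 or AK9, and neither was analysed under its own name.

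The study set 3 male cattle-yak (libraries TES5, TES6 and TES7), each the F1 offspring of a Jersey bull and a Gannan yak cow, against 3 male Gannan yak (Yak8, Yak9 and Yak10). All animals were 4 years old, none was treated, and each library came from the testis of 1 animal. F1 cattle-yak males do not produce sperm, and the comparison asks how their testis transcriptome differs from that of yak. The groups came from different places. By the study's methods cattle-yak were castrated and yak euthanized, although the labels give castration for all, so that place, mode of collection and group cannot be told apart.

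Adenylate kinases move a phosphate between adenine nucleotides, so that a pair of ADP molecules becomes ATP and AMP, or the reverse. They keep the nucleotide pools in balance and carry high-energy phosphate from the place where ATP is made to the place where it is used. In sperm this is of interest because the dyneins of the tail burn ATP far from the mitochondria of the midpiece. AK1 is the main cytosolic form and is abundant in muscle, AK3 and AK4 lie in the mitochondrial matrix, AK5 is a cytosolic form known from brain, and AK7, AK8 and AK9 are linked to motile cilia and flagella. The deposited annotation gave adenylate kinase activity, ATP binding and purine metabolism for all 7 genes, and cytidylate kinase activity for AK7, AK8 and ak8. It placed AK1 in the outer dense fibre, AK7 in the motile cilium, AK8 in the axoneme and sperm flagellum, AK3 and AK4 in the mitochondrial matrix, and ak8 only in the cytosol.

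FPKM (fragments per kilobase of gene model, scaled to the size of the library) is a level per length, so that it can be set side by side between genes. The fragments recovered on genes numbered 11132462 to 11790646 in a cattle-yak library, and 12935172 to 13079818 in a yak library. The test, limma on log2 (FPKM + 1), took in the 15042 genes whose mean reached 0.5 FPKM, and a gene was called at an adjusted p under 0.05 with a log2 (foldchange) beyond 1 in either direction. Differences on this scale understate the change of low genes. Calls were made for 54.2% of the tested genes, with 33.4% higher and 20.8% lower in cattle-yak, and over all tested genes the median log2 (foldchange) was 0.51. With median-of-ratios scaling this median was 0.01, and the 5023 higher and 3136 lower genes became 2660 and 4176. The groups did not overlap in 84.1% of the tested genes. All 11 Sertoli genes measured were called higher, while all 5 round spermatid and all 7 elongating spermatid genes were called lower. In a bulk sample fewer cells of a type and less RNA per cell cannot be told apart.

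Of the 7 adenylate kinase genes 4, namely AK1, AK8, AK7 and ak8, fell in cattle-yak testis, and none was called higher. AK4 was higher in each cattle-yak than in each yak, but at a log2 (foldchange) of 0.57 it was not called. AK1 fell most, from 88.3 ± 10.01 FPKM (SD, n = 3) in yak to 1.36 ± 0.37 (SD, n = 3) in cattle-yak, while the values of AK3 overlapped between the groups. AK4 and AK5 were near or under 1 FPKM in every animal except for 1 value of AK4. Of the 7 genes 6 passed the filter on low values, and AK4 did so through its level in cattle-yak. Against 4 of 6 tested adenylate kinases, 20.8% of all tested genes were called lower. Groups were apart without overlap in 5 of the 6, and in 4 of these cattle-yak was lower, beside 84.1% and 30.2% of all tested genes. AK1 and AK8 fell by more than 3 on the log2 scale, where 6.7% of all tested genes had −3 or lower. The median log2 (foldchange) of the 6 was −2.87.

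**Figure D1:**
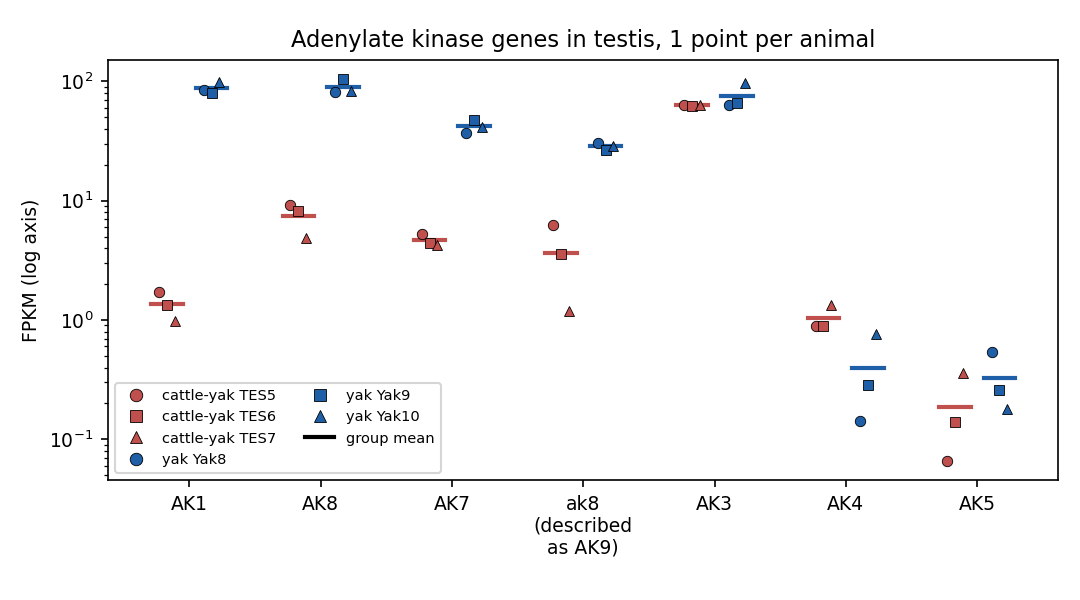
FPKM of the 7 adenylate kinase genes (log axis) in each of the 6 animals, with cattle-yak in red, yak in blue and a bar at each group mean. AK1, AK8, AK7 and ak8 lie apart between the groups, with AK1 at 0.991 to 1.73 FPKM in cattle-yak against 80.4 to 99.5 in yak, while the values of AK3 overlap.

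AK1 (ENSBGRG00000007407), the cytosolic enzyme that is also found in the accessory structures of the sperm tail, had 84.9 FPKM in Yak8, 80.4 in Yak9 and 99.5 in Yak10. In cattle-yak it had 1.73 FPKM in TES5, 1.35 in TES6 and 0.991 in TES7. Every yak value was far above every cattle-yak value, and the yak mean was 65.1 times that of cattle-yak. The log2 (foldchange) was −5.25 (standard error 0.15, 95% interval −5.60 to −4.90, adjusted p = 9.8e-08 from limma). Only 1.91% of the tested genes had a log2 (foldchange) as low as that of AK1 or lower. The pseudocount of 1 understates the fall of AK1, which was −5.95 with a pseudocount of 0.1 and −6.04 with voom. These values rest on 131 fragments over the 3 cattle-yak libraries and 9640 over the 3 yak libraries, on a gene model of 2785 bases. Since AK1 is a muscle enzyme as well, genes of skeletal muscle were read beside it. ACTA1, the actin of skeletal muscle, averaged 0.252 FPKM in cattle-yak against 0.368 in yak, and MYH2, a fast myosin, 0.0693 and 0.0173. MYLPF, a light chain of fast muscle myosin, was the only one of the 4 tested muscle genes to be called, and it was lower at −3.17. All 8 muscle genes together had 7.80 to 15.3 FPKM in cattle-yak against 56.4 to 79.8 in yak, without overlap. This difference rests on MYLPF, singled out after its values were seen. The other 7 muscle genes together had 3.44 to 4.31 FPKM in cattle-yak against 3.23 to 4.11 in yak, and the groups overlap. The part of muscle in the level of AK1 was not tested.

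AK8 (ENSBGRG00000015381), a flagellar adenylate kinase, had 82.1 FPKM in Yak8, 105 in Yak9 and 83.4 in Yak10. The cattle-yak values were 9.17 in TES5, 8.13 in TES6 and 4.87 in TES7. The groups were well apart, with a yak mean 12.2 times that of cattle-yak. Its log2 (foldchange) was −3.47 (standard error 0.21, 95% interval −3.95 to −2.99, adjusted p = 1.8e-06 from limma). AK8 kept more of its yak level in cattle-yak than AK1 did. The ratio of AK1 to AK8 within a library, which a constant factor per library cannot change, was 0.166 to 0.203 in cattle-yak against 0.768 to 1.19 in yak.

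AK7 (ENSBGRG00000018048), an adenylate kinase whose loss causes defects of motile cilia and of the sperm tail, had 37.0 FPKM in Yak8, 47.1 in Yak9 and 41.7 in Yak10. It had 5.23 FPKM in TES5, 4.45 in TES6 and 4.29 in TES7. The log2 (foldchange) was −2.92 (standard error 0.13, 95% interval −3.23 to −2.61, adjusted p = 5.0e-07 from limma), and the yak mean was 9.01 times that of cattle-yak. AK7 exceeded AK1 in each cattle-yak animal, by 3.02 to 4.33 times, and was below it in each yak, with a ratio of 0.419 to 0.586.

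The gene ak8 (ENSBGRG00000009411), described as adenylate kinase 9 and with the longest model of the family at 5910 bases, had 30.3 FPKM in Yak8, 26.4 in Yak9 and 28.9 in Yak10. In cattle-yak it had 6.26 FPKM in TES5, 3.56 in TES6 and 1.20 in TES7. The yak animals were close to each other, whereas the highest cattle-yak value was 5.24 times the lowest. Its log2 (foldchange) was −2.82 (standard error 0.37, 95% interval −3.68 to −1.96, adjusted p = 1.5e-04 from limma). The value was −2.36 without TES7 and −3.22 without TES5, and it was called lower in both cases.

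Among the cattle-yak animals TES5 had the highest and TES7 the lowest FPKM of each of AK1, AK8, AK7 and ak8. For AK7 the order of TES6 and TES7 turns on library size, since each had 156 fragments. The summed level of the 5 round spermatid genes was likewise highest in TES5, with 26.0 FPKM, against 12.8 in TES6 and 5.01 in TES7, while in yak it was 583 to 656. The 7 elongating spermatid genes together had 92.2 FPKM in TES5, 37.1 in TES6 and 20.3 in TES7, and 9782 to 11963 in yak. This order is not particular to spermatid genes. The Leydig genes, which were higher in cattle-yak, had it as well, with 12423, 11846 and 10434 FPKM. The Sertoli and spermatogonia genes had the reverse order. The 9 spermatocyte genes had 355 FPKM in TES5, 211 in TES6 and 325 in TES7, against 383 to 399 in yak, so that TES6 and not TES7 was lowest for them. The lower sum in cattle-yak rests on PIWIL1, singled out after its values were seen, and the other 8 had 330, 196 and 318 FPKM in these animals against 233 to 264 in yak. The part of these cells in the level of the adenylate kinases was not tested.

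AK3 (ENSBGRG00000005727), the matrix enzyme that uses GTP to phosphorylate AMP, had 63.9 FPKM in TES5, 62.1 in TES6 and 63.9 in TES7. In yak it had 63.6 FPKM in Yak8, 65.8 in Yak9 and 96.5 in Yak10. Yak8 and Yak9 were level with the cattle-yak animals, and Yak10 alone stood above them. The log2 (foldchange) of −0.22 did not pass the test (95% interval −0.58 to 0.14, adjusted p = 0.222 from limma). Without Yak10 it was −0.03, with an adjusted p of 0.764 from limma. A change of 1 on the log2 scale in either direction lay outside the interval, under FPKM without further scaling. With median-of-ratios scaling AK3 was −0.83, with an adjusted p of 1.5e-03 from limma but within the threshold of 1. It was 0.16 when the libraries were centred on the spermatocyte genes, and −2.37 and called lower when they were centred on the Sertoli genes.

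AK4 (ENSBGRG00000014022), the other matrix form, is known as a gene that responds to low oxygen. It had 0.896 FPKM in TES5, 0.893 in TES6 and 1.34 in TES7, and 0.142 in Yak8, 0.285 in Yak9 and 0.768 in Yak10. The cattle-yak values were all above the yak values, by a narrow margin at Yak10, and they rest on 58 fragments in cattle-yak and 25 in yak. The log2 (foldchange) was 0.57 (95% interval 0.09 to 1.04, adjusted p = 0.032 by limma), which is less than 1 and near the median of all genes. Without TES7, Yak8 or Yak9 the adjusted p by limma was 0.0855 to 0.104. With a pseudocount of 0.1, which understates low genes less, it was 1.38 and AK4 was called higher, as it was with voom on whole fragments, at 1.62. Centred on the Sertoli genes it was −1.58, a setting that lowers every log2 (foldchange) alike by 2.14 and so turns any gene between 0 and that value.

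AK5 (ENSBGRG00000003065) was barely detected. It had 3, 6 and 16 fragments in TES5, TES6 and TES7, and 27, 13 and 9 in Yak8, Yak9 and Yak10, on a model of 3844 bases. In FPKM this was 0.0659 to 0.359 in cattle-yak against 0.180 to 0.535 in yak, and the groups overlapped. AK5 lay under the minimum for the test. Without that minimum its log2 (foldchange) was −0.16, with an adjusted p of 0.330 from limma.

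**Figure D2:**
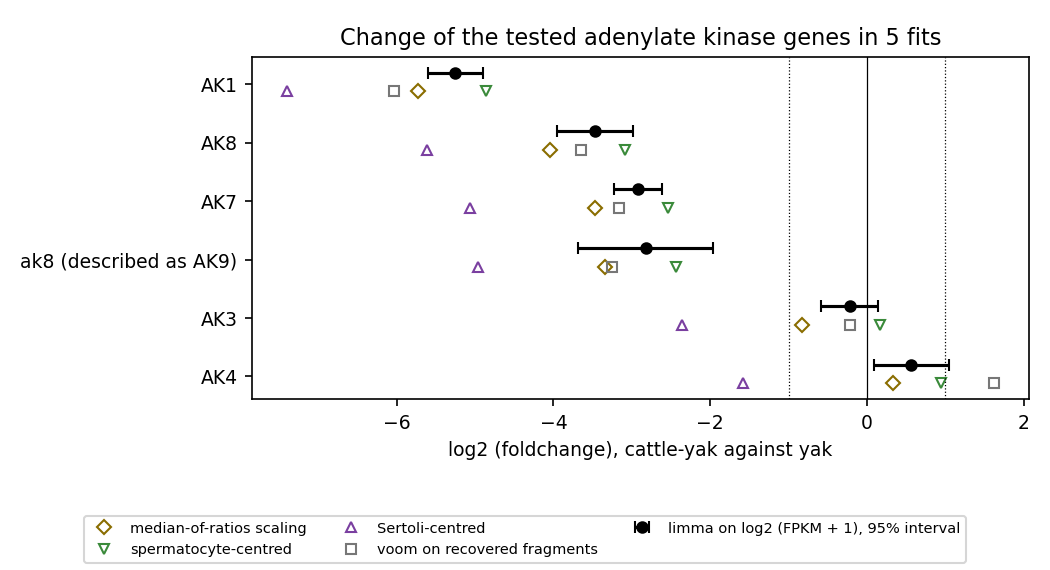
log2 (foldchange) of the 6 tested adenylate kinase genes, cattle-yak against yak, from limma on log2 (FPKM + 1) with its 95% interval (black) and from 4 other fits (open symbols), with dotted lines at −1 and 1. AK1, AK8, AK7 and ak8 lie below −1 in each fit shown, while AK3 and AK4 change side, from −2.37 to 0.16 and from −1.58 to 1.62.

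The 4 genes that fell were called lower under each scaling that was tried, which were median-of-ratios, TPM, quantile, Sertoli-centred and spermatocyte-centred scaling and voom on the recovered fragments. Over these settings and the other pseudocounts, AK1 ranged from −7.39 to −4.87, AK8 from −5.61 to −3.09, AK7 from −5.07 to −2.54 and ak8 from −4.97 to −2.44. In each case the lowest value came from Sertoli centring and the highest from spermatocyte centring. The spermatocyte genes differed among the cattle-yak animals, and centring on them led limma to pool the spread fully over genes, so that its p-values there are too small. With the own spread of each gene in that setting, the calls stood at an adjusted p, over all genes fitted with lmFit of limma, of 1.0e-03 for AK1, 2.7e-03 for AK7, 4.1e-03 for AK8 and 0.013 for ak8.

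The order of the adenylate kinases by FPKM differed between the groups. In yak AK8 (90.1 ± 12.6 FPKM), AK1 (88.3 ± 10.01) and AK3 (75.3 ± 18.4; SD, n = 3 for each) stood highest and did not differ beyond their spread. AK7 followed with 41.9 ± 5.05 FPKM and ak8 with 28.5 ± 1.96, each apart from its neighbours, and AK4 (0.399 ± 0.33) and AK5 (0.324 ± 0.19) were lowest and not distinguishable. In cattle-yak AK3 was alone at the top with 63.3 ± 1.07 FPKM. AK8 (7.39 ± 2.24), AK7 (4.66 ± 0.50) and ak8 (3.67 ± 2.53) came next, and neighbours in this order overlapped. AK1 (1.36 ± 0.37) and AK4 (1.04 ± 0.26) did not differ beyond their spread, and AK5 was lowest with 0.188 ± 0.15 FPKM. The values of ak8 overlapped those of AK1 and AK4 as well, since in TES7 ak8 had 1.20 FPKM and AK4 1.34. The 7 genes summed to 77.0 to 87.3 FPKM in a cattle-yak library and 299 to 351 in a yak library.

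AK3 held 77.8% ± 4.95 (SD, n = 3) of this sum in cattle-yak and 23.0% ± 3.91 in yak. AK1 held 1.65% ± 0.35 in cattle-yak and 27.2% ± 2.11 in yak. For AK8 the shares were 8.98% ± 2.30 and 27.8% ± 4.22, and for AK7 5.70% ± 0.26 and 12.9% ± 1.38. AK3 thus made up most of the adenylate kinase level in each cattle-yak animal and under 28% of it in each yak. These shares are within a library, so that a constant factor per library does not move them.

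**Figure D3:**
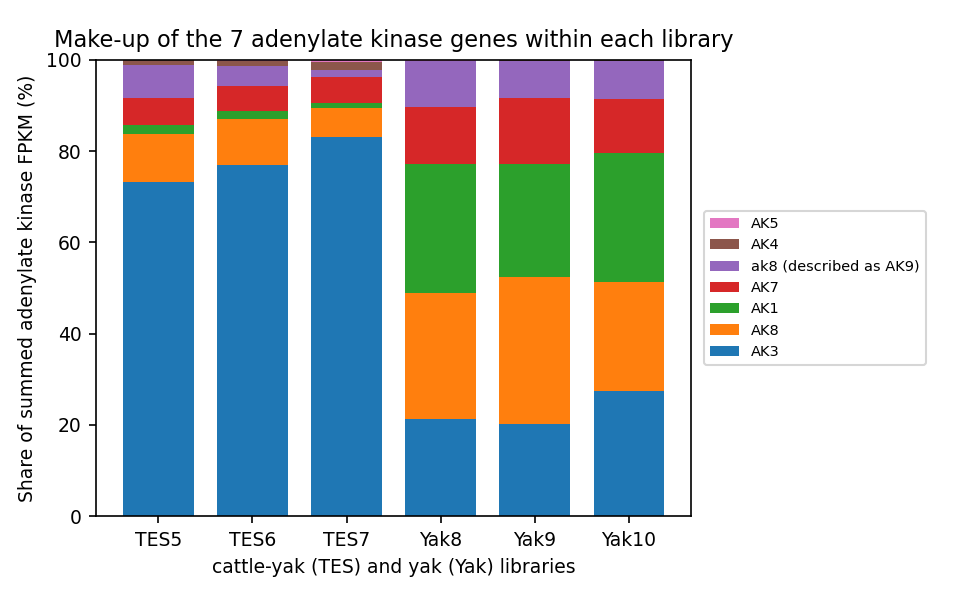
Share of the summed FPKM of the 7 adenylate kinase genes (%) that each gene holds, in the 3 cattle-yak libraries (TES) and the 3 yak libraries (Yak). AK3 (blue) fills 73.2% to 83.0% of each cattle-yak bar and 20.3% to 27.5% of each yak bar, and AK1 (green) shrinks to at most 1.98% in cattle-yak.

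In other mammals AK6 shares its locus with TAF9, a subunit of the general transcription factor TFIID. The gene with the symbol TAF9 had 287 ± 26.7 FPKM in yak (SD, n = 3) against 196 ± 25.1 in cattle-yak, and whether fragments of AK6 are counted in it was not tested.

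The profile of each tested adenylate kinase over the 6 animals was set beside those of up to 12624 other genes whose symbol stands on 1 gene. Likeness was measured by the Euclidean distance of the centred log2 (FPKM + 1) values, as a description. For AK1, AK8, AK7 and ak8 it mostly reflects the difference between the groups. For AK3, whose groups overlap, it mostly reflects the higher value in Yak10. Nearest to AK1 were C16orf78 (distance 0.20), PRSS54 (0.22) and ACE (0.22). Nearest to AK8 were CFAP44 (0.12), Ttll6 (0.26) and EFHB (0.26), and among the 3 nearest to AK7 were NOTO (0.23) and STARD10 (0.25). For ak8 they were TSNAXIP1 (0.33), CFAP65 (0.35) and STKLD1 (0.40), which were farther away than those of the other genes. AK3 lay nearest to RIMBP2 (0.16), RCCD1 (0.16) and ZNF215 (0.17), and AK4 to SNRNP27 (0.16), DNAAF5 (0.17) and RXFP3 (0.19).

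All 10 genes of a motile axoneme list were called lower, as AK7 and AK8 were, where 20.8% of all tested genes were called lower. Their median log2 (foldchange) was −2.84. CFAP45 and CFAP52, axonemal proteins that bind each other, had −4.32 and −3.87, SPEF2, which carries an adenylate kinase domain, had −2.98, and RSPH1, a radial spoke protein, had the smallest fall, −1.72. The summed level of the list was 53.1 FPKM in TES5, 27.3 in TES6 and 16.02 in TES7, and 318 to 387 in yak.

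Other enzymes that pass on or use phosphate of adenine nucleotides were counted by role. Of 36 tested genes 14 were called higher and 6 lower, beside 33.4% and 20.8% of all tested genes, with a median log2 (foldchange) of 0.77. The number called higher was 7 with median-of-ratios scaling. With Sertoli centring it was 0, where the shift by 2.14 left 38 higher and 10708 lower among all tested genes. The 6 that fell were called lower under each scaling, except NME7 with spermatocyte centring. The 7 nucleoside diphosphate kinases move phosphate to other nucleotides. Among them NME5 and NME8 fell, to a log2 (foldchange) of −3.74 and −3.03, and NME7 to −1.05. NME2 was higher, at 1.26, as were NME3 and NME9 at 1.08. With median-of-ratios scaling NME2, NME3 and NME9 had 0.65, 0.49 and 0.66 and were not called. None of the 3 tested creatine kinases, which serve the parallel phosphate relay, was called, and CKB had 0.85. AMP metabolism held the largest fall of these lists, that of NT5C1B, a nucleotidase that splits AMP, from 212 ± 18.9 FPKM in yak to 0.940 ± 0.76 in cattle-yak (SD, n = 3), with −6.84. ADSS1, an enzyme of AMP synthesis, fell as well, at −2.62, and 3 of the 11 genes of this list were higher, among them NT5E, the nucleotidase of the cell surface, at 2.46.

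For AMPK, the kinase that senses the AMP which adenylate kinases produce, the catalytic subunit PRKAA1 fell from 80.7 ± 2.60 FPKM in yak to 16.1 ± 0.46 in cattle-yak (SD, n = 3), which is −2.25 on the log2 scale. Of its 7 subunits 4 were called higher, beside 33.4% of all tested genes. They were PRKAG3 at 2.01, PRKAB1 at 1.65, PRKAG1 at 1.57 and PRKAB2 at 1.52. The last pair had 0.98 and 0.95 with median-of-ratios scaling and were not called. With Sertoli centring all 4 turned below 0 and none was called. The ADP/ATP carriers of the inner mitochondrial membrane SLC25A4, SLC25A6 and SLC25A5 had 2.66, 2.18 and 1.80 and were called higher. With Sertoli centring these carriers had 0.52, 0.03 and −0.35 and were not called. SLC25A31, the carrier known from testis and sperm, stood at 34.5 ± 2.01 FPKM in yak (SD, n = 3) against 36.2 ± 4.69 in cattle-yak. Its difference of 0.06 on the log2 scale did not pass the test (95% interval −0.21 to 0.33, adjusted p = 0.641 by limma), and it was −2.08 with Sertoli centring. Of the other nucleoside monophosphate kinases only CMPK2 was called, at 2.08, and GUK1, CMPK1 and DTYMK had 0.60 to 0.68. With Sertoli centring CMPK2 had −0.06 and was not called.

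**Figure D4:**
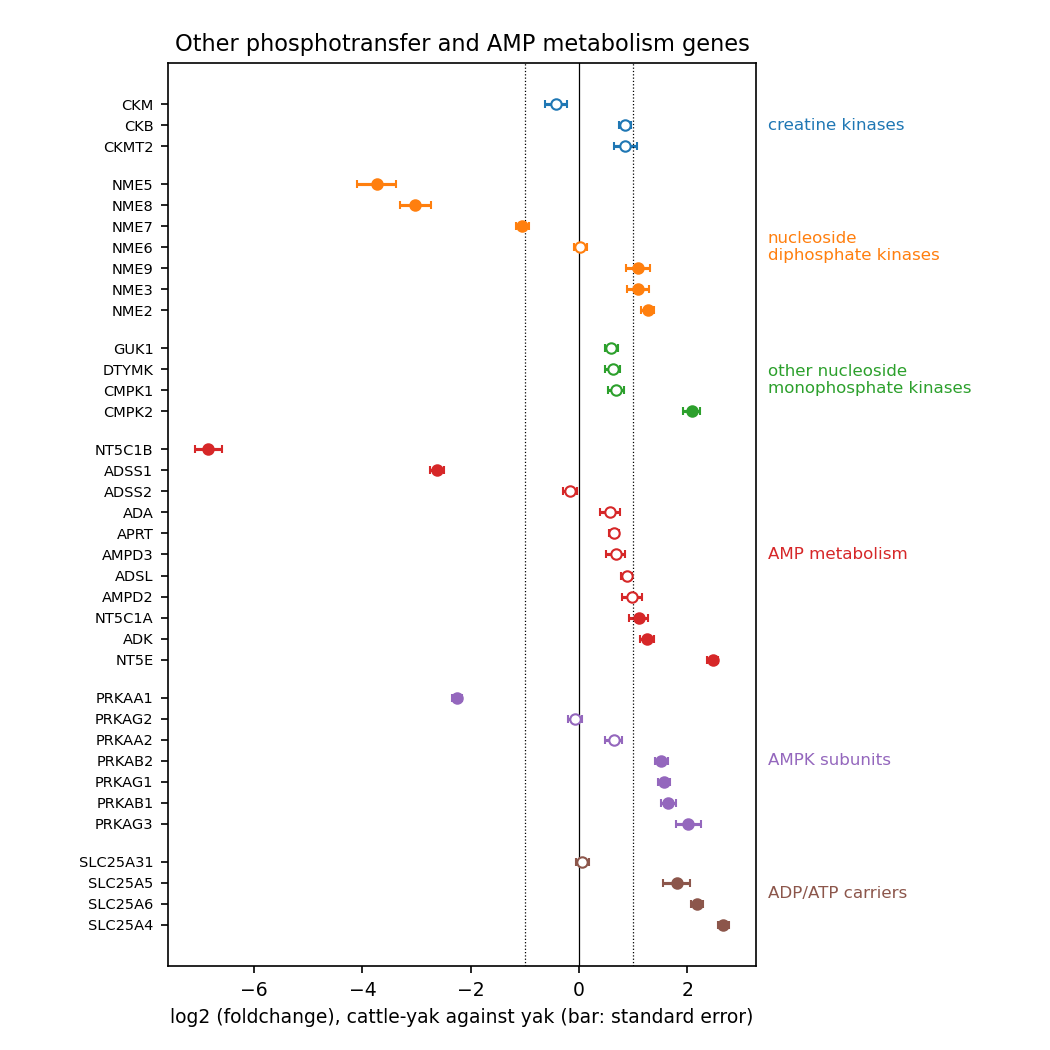
log2 (foldchange) of the 36 tested genes of the phosphotransfer and AMP metabolism lists, cattle-yak against yak, with the standard error as a bar, filled where called and open where not, and dotted lines at −1 and 1. Each group of genes spreads to both sides or to the right, with NT5C1B lowest at −6.84 and SLC25A4 highest at 2.66.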

How the data were processed

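Testis RNA-seq libraries of 6 animals were used, 1 per animal and none pooled. Reads were trimmed with Trimmomatic by the authors, who mapped those of both groups with HISAT2 to the yak genome LU_Bosgru_v3.0, and deposited FPKM values made with Cufflinks, without scaling between libraries. Mapping a hybrid to the yak genome may lower its counts, which was not tested. Coordinates and sequences were not used here. All 6 columns of values were used.

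Whole fragments were recovered from the ratios of a gene's FPKM between libraries for 17973 genes, within 0.003 fragments of a whole number. On simulated data 97.3% of 17624 genes came back exactly. The fit was made with limma 3.58.1 in R 4.3.3 (lmFit, eBayes with trend, two-sided, Benjamini-Hochberg adjustment, pseudocount 1), since the table holds FPKM and not the counts the study tested with DESeq. On simulated data with 200 genes changed 4-fold it called 198 of them and 0 unchanged genes. There 15050 genes were tested and as many were raised as lowered, whereas 54.2% of the tested genes were called in the data. The simulation therefore cannot show how calls fare where most genes change or where they turn on the scaling. The other steps used Python 3.11.15, pandas 2.3.3 and matplotlib 3.10.9.

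Named genes are those with a member symbol, those of the lists (the most abundant gene of a symbol, where CKB, ADK, CLU, SPAM1, OAZ3, MYH7 and KRT8 stand on 2 genes and CYP17A1 on 3 and are uncertain), TAF9, and the 3 nearest profiles of each tested member. Of these, 2 genes are not reported here, and 1 of them was left out of the list counts. The members and lists were chosen with earlier results of these data known. The other marker lists gave 6 of 6 Leydig, 7 of 7 myoid and 7 of 8 spermatogonia genes higher. Of 7 endothelial genes 4 were higher and 1 lower, of 6 macrophage genes 3 and 2, of 9 spermatocyte genes 1 and 1, and of 5 tested genital tract epithelium genes 1 and 0. Alternatives are given in the closing section.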

Additional observations from a re-analysis of the deposited data

How the results depend on the processing

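Of the calls on the 6 tested adenylate kinases, none changed when any 1 animal was left out. With each animal left out in turn the log2 (foldchange) ran from −5.36 to −5.13 for AK1, −3.63 to −3.23 for AK8, −3.01 to −2.84 for AK7, −3.22 to −2.36 for ak8, −0.33 to −0.03 for AK3 and 0.43 to 0.75 for AK4. AK3 was 0.16 with spermatocyte centring and −2.37, called lower, with Sertoli centring. AK4 was called higher with a pseudocount of 0.1 (1.38) or 0.01 (1.66), with voom (1.62) and without a fold-change threshold (0.57), and was −1.58 with Sertoli centring. The untested AK5, at −0.16, moved to −0.60 and −0.91 with these pseudocounts, −0.90 with voom, −2.30 with Sertoli centring and 0.23 with spermatocyte centring. With the most abundant gene of each symbol only, AK1 held 29.8% of the family in yak. Over all genes, 2660 were higher with median-of-ratios scaling, 38 higher and 10708 lower with Sertoli centring, and 7916 higher without a fold-change threshold. Of the other phosphotransfer genes 7 were higher with median-of-ratios scaling, 0 higher and 25 lower with Sertoli centring, and 23 higher with spermatocyte centring. In an alternative chosen after seeing the data, spermatocyte centring with the own spread of each gene, AK3 was 0.16, AK5 was 0.23, and 23 of the other phosphotransfer genes were higher, and no call on the tested adenylate kinases changed. Centring changes the reference by construction, and dropping the fold-change threshold can only add calls. A smaller pseudocount understates low genes less, also by construction. For the remaining shifts the cause was not tested. The filter, TPM, quantile and prior settings changed no call on the tested adenylate kinases, although AK4 was not tested at a minimum of 5 FPKM. The replicate numbers follow accession order and pair no animals. Depth limits AK4 and AK5, with 25 to 58 fragments per group.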
